A study of Mus musculus with 60 samples.

Results

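The comparison described here is between Sh2b3 knockout and wild-type CD8 T cells that were activated for 24 h while IL-2 was blocked. Its members are the 8 libraries whose titles give 24 h and anti-IL2, 4 wild type and 4 Sh2b3 -/-, out of 60 libraries in 10 groups. The study sequenced polyadenylated RNA of naive CD8 T cells taken by negative selection from spleens of NOD mice (a diabetes-prone strain), at rest and after T cell receptor stimulation. All cells, wild type and knockout, carried OT-I, a transgenic receptor specific for an ovalbumin peptide, and all came from that strain. In the 2 groups compared, Sh2b3+/+ and Sh2b3-/- cells were cultured for 24 h with anti-CD3 fixed to the plate at 10 µg/mL, anti-CD28 in solution at 5 µg/mL and an antibody against IL-2 at 10 µg/mL. For reference, the same genotype difference was taken from cells stimulated for 24 h without that antibody (5 libraries of each genotype) and from unstimulated cells at 0 h (11 of each). The labels give neither the ages of the mice, nor how the knockout allele was made, nor whether a replicate is its own animal or culture, and the p-values therefore reflect the spread among these samples, which may be technical. A single transgenic receptor on bulk, purified cells limits the groups as a model of a mixed T cell response.

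SH2B3, also called LNK, is an adaptor protein that binds JAK kinases and activated cytokine receptors and dampens their signalling. IL-2, made by activated T cells, signals through JAK1 and JAK3 to STAT5, which raises feedback inhibitors such as Cish, the receptor chain Il2ra and survival genes. Interferons signal through other JAK pairs to factors that act on promoter elements called GAS and ISRE and induce the immunity-related GTPases and guanylate-binding proteins, effectors against intracellular pathogens. With IL-2 blocked, a genotype difference in these cells is measured where that cytokine is least available.

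Total counts were 16.1 to 22.3 M reads in the wild-type libraries and 17.5 to 34.2 M in the knockout libraries, the largest being knockout replicate 2. Neither depth, nor the share of mitochondrial counts (1.57 to 2.17%), nor the share of the 50 most abundant genes, nor the number of genes detected separated the genotypes (exact permutation p from 0.286 to 0.886, two-sided, adjusted p = 0.886 for each over 4 measures; 0.0286 is the smallest p this design allows). Wild-type replicate 1, knockout replicate 2 and knockout replicate 4 stood apart from the other 5 libraries on the principal components of the 500 most variable genes, and their median correlations with the other libraries were 0.958 to 0.960 against 0.969 to 0.974. The cells carried the markers of CD8 T cells, with a summed level of 4782 to 5182 CPM over 12 markers, and neutrophil markers summed to at most 1.20 CPM. Anti-IL-2 coincides with a run of library numbers (set D, which holds these 8 libraries and no others), so effects of the antibody and of that set cannot be told apart, whereas the genotypes within the set can be compared.

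Sh2b3 itself (ENSMUSG00000042594) checked the labels. Levels are given as CPM, counts scaled to library size after TMM normalization. It stood at 97.7, 83.3, 85.0 and 77.1 CPM in wild-type replicates 1 to 4 and at 22.8, 19.8, 15.5 and 13.8 CPM in knockout replicates 1 to 4. Every knockout library was below every wild-type library, and the knockout mean was 21.0% of the wild-type mean. The difference was -2.25 ± 0.14 log2 units (SE; edgeR adjusted p = 1.11e-07). The values are summed over the gene, and which exons the remaining knockout reads come from was not analysed here. On chromosome 5 as a whole, 4 of 893 tested genes were called, Sh2b3 lower and 3 others higher. Among genes with a known position these were 8.70% of the called and 6.66% of the tested genes. The 3 higher genes, Gbp4, Gbp6 and Plac8, are not among the near neighbours, and the part of their position in the result was not tested. The 29 tested neighbours of Sh2b3 on chromosome 5 had a median difference of 0.00 with 0 called, against -0.00 over all genes. At an unadjusted p under 0.05 there were 6 of them, the DESeq2 Wald test and limma voom each called 1, and Atxn2 averaged 60.4 ± 4.82 CPM (wild type) against 77.8 ± 6.65 CPM (knockout; SD, n = 4 each; 0.36 ± 0.09, adjusted p = 0.13). Atxn2 differed by 0.31 ± 0.11 at 24 h without anti-IL-2 (adjusted p = 0.27) and was called at 0 h (0.38 ± 0.07, adjusted p = 0.0025).

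Of 13441 genes tested, 47 (0.35%) were called at an adjusted p under 0.05, 27 higher in the knockout (0.201%) and 20 lower (0.149%). Most differences were small: 13 of the higher and 5 of the lower genes exceeded 1.5-fold. At an unadjusted p under 0.05 there were 624 genes higher and 650 lower, so the direction was even across the transcriptome. All 47 called genes had groups that did not overlap, as did 5.48% of all genes tested. The count depended on the libraries: without 1 library it was 10 to 76, with 10 without wild-type replicate 2, 17 without wild-type replicate 3, 18 without knockout replicate 4, 19 without knockout replicate 1, 22 without wild-type replicate 1, 24 without knockout replicate 3, 28 without wild-type replicate 4 and 76 without knockout replicate 2. Among the 38 called genes with an established name, each kept its direction in all 15 alternative analyses. As their groups did not overlap, leaving out libraries could hardly change a direction. Of the 38, 8 stayed called whichever library was left out, namely Sh2b3, Mid1, Igtp, Gbp4, Plac8, Acp1, Rps7 and Itm2a. Only 1, Sh2b3, stayed called in all 15, which include a test for a change of at least 1.5-fold.

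**Figure D1:**
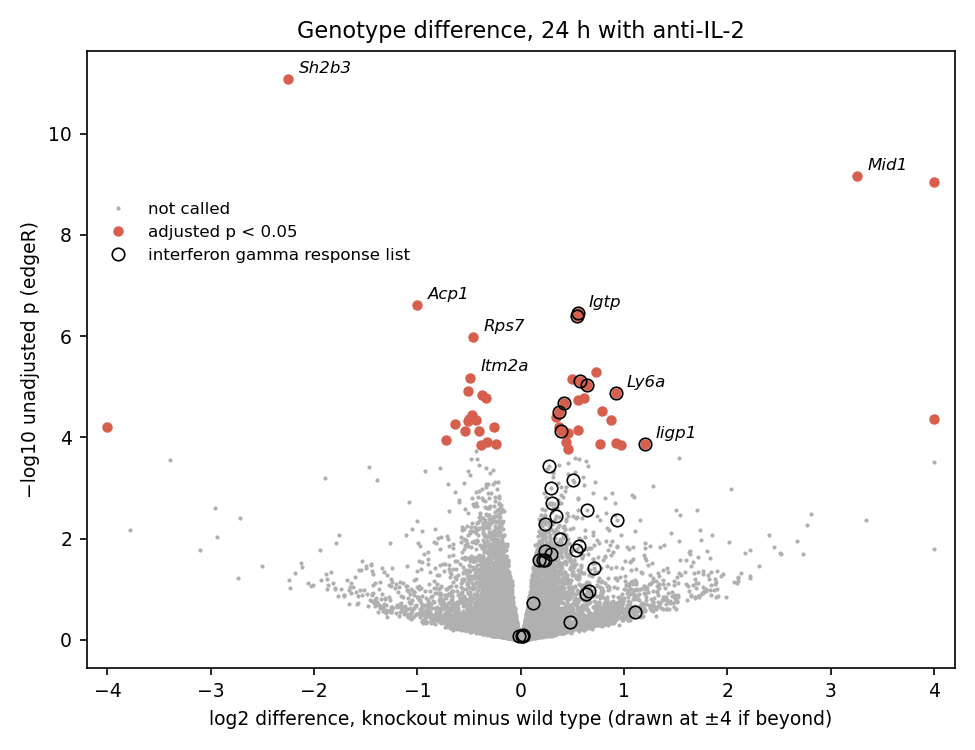
Each point is 1 of 13441 genes, with the log2 difference between knockout and wild type on the x axis and -log10 of the unadjusted edgeR p on the y axis; differences beyond 4 are drawn at 4, genes at an adjusted p under 0.05 are red and members of the interferon gamma response list are circled. Sh2b3 lies far to the left and high, and 34 of the 35 circled genes lie to the right of 0.

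The list with the most called genes was the interferon gamma response. Of 35 tested genes of that list, 9 were called, all higher in the knockout, where 0.201% of all genes tested were called higher. Above 0 lay 34 of 35, against 49.4% of all genes, and the median was 0.39 log2 units against -0.00. Genes of such a list can rise and fall together in a library, and their number is not a count of independent observations. The list was written with earlier results of these data known. The 9 were the immunity-related GTPases Igtp, Irgm1, Irgm2, Iigp1 and Ifi47, the guanylate-binding proteins Gbp4 and Gbp6, Nlrc5 and Ly6a. Nlrc5 is the transactivator of MHC class I genes and Ly6a the surface protein Sca-1. Between 2 and 11 of the list were called when 1 library was left out (2 without wild-type replicate 2, 4 without knockout replicate 1, and 5 each without wild-type replicate 1, wild-type replicate 3 or knockout replicate 4), and the list median stayed between 0.36 and 0.46. In a test for a change of at least 1.5-fold, 0 of the list were called, and in a fit over all 18 libraries at 24 h, 2 were.

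The promoters of 4 called GTPase genes on chromosome 11 are shown because they carry the letter patterns to which interferon-activated factors bind. Sequences are from RefSeq on GRCm38.p6, 5′ to 3′ on the strand of the gene, 100 bases each, with matches to the GAS-type pattern TTCNNNGAA or the ISRE-type pattern, GAAA and GAAA with any 2 letters between them (either strand), in capitals.
Igtp: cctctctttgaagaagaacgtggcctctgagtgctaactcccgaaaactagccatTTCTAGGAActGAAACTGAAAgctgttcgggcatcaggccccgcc
Irgm2: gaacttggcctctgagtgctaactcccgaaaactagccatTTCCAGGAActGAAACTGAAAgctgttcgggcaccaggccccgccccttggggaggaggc
Gm12250: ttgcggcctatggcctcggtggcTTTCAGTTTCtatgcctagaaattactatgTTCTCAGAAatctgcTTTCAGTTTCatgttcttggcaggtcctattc
Irgm1: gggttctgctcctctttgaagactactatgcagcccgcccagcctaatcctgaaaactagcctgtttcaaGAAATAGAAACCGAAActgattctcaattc
These stretches are chr11:58199456-58199555 (plus strand) for Igtp, chr11:58214862-58214961 (plus) for Irgm2, chr11:58183729-58183828 (plus) for Gm12250 and chr11:48871421-48871520 (minus) for Irgm1. Igtp and Irgm2 each held a GAS-type match followed by an ISRE-type match after the same short spacer, Gm12250 held a GAS-type match between 2 ISRE-type matches, and Irgm1 held 2 overlapping ISRE-type matches. Over windows of 300 bases (250 before the start and 50 after), the GAS-type pattern occurred in 8.47% and the ISRE-type pattern in 3.49% of 27025 promoters. RefSeq promoters were matched for 14 of the 27 genes called higher. Of these 14, 4 held a GAS-type and 4 an ISRE-type match, and 5 held either, because Igtp, Irgm2 and Gm12250 held both. The stretches shown for Igtp and Irgm2 are closely alike, so the number with a match is not a count of independent observations. Igtp, Irgm2 and Gm12250 also lie close together on chromosome 11. That chromosome held 7 called genes, all higher, which were 15.2% of the called and 8.06% of the tested genes with a known position. The part of position in these rises was not tested. RefSeq promoters were also matched for 13 of the 20 called lower, of which 0 held a GAS-type match and 1 an ISRE-type match, in Rps7. A match is a description of the letters and not evidence of binding. Samhd1, also called higher and not shown, held a GAS-type match at -235 bases from the start. In that window no match was found for the other higher genes with a RefSeq promoter, Ifi47 and Id2 among them.

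Igtp, a GTPase that acts at vacuoles of intracellular parasites, stood at 193, 196, 215 and 229 CPM in the 4 wild-type libraries and at 309, 308, 332 and 281 CPM in the 4 knockout libraries. The lowest knockout library was above the highest wild-type library, and the difference was 0.56 ± 0.07 log2 units (adjusted p = 8.92e-04). Irgm1, a regulator of the other GTPases of this family, stood at 127, 141, 161 and 178 CPM in wild type and at 222, 206, 246 and 233 CPM in the knockout. Again the groups did not overlap, and Irgm1 rose by 0.58 ± 0.09 (adjusted p = 0.00962). Iigp1, a member of the family that coats vacuoles, had the largest rise of the list, from 22.2, 44.7, 46.7 and 39.2 CPM to 115, 88.5, 74.4 and 74.7 CPM. Its difference was 1.20 ± 0.21 (adjusted p = 0.042), with wild-type replicate 1 the lowest of the 8 libraries. Irgm2 (0.39 ± 0.07, adjusted p = 0.0282) and Ifi47 (0.42 ± 0.07, adjusted p = 0.0147) rose less. Gm12250, an immunity-related GTPase gene listed under a provisional symbol and named here after its value was seen, rose by 0.61 ± 0.10 (adjusted p = 0.0134).

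The guanylate-binding proteins, which attack pathogen membranes, gave the same direction. Gbp4 stood at 281, 257, 269 and 308 CPM in wild type and at 421, 383, 445 and 382 CPM in the knockout, without overlap (0.55 ± 0.07, adjusted p = 8.92e-04). Gbp6 went from 31.7, 32.2, 37.9 and 38.8 CPM to 60.1, 53.3, 54.5 and 51.7 CPM, also without overlap (0.64 ± 0.10, adjusted p = 0.0105). Gbp4 and Gbp6 lie on chromosome 5, as Sh2b3 does, and the part of their position in these rises was not tested. For Gbp2 and Gbp5 the ranges overlapped through knockout replicate 2, which had 352 CPM of Gbp2 and 69.5 CPM of Gbp5 where the other knockout libraries had 487 to 664 and 117 to 148. Their differences of 0.57 ± 0.18 and 0.54 ± 0.19 were not called (adjusted p = 0.37 and 0.39). Genes of this family are close copies of each other, and how reads shared between them were counted is not given in the sources used here.

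Nlrc5, a regulator of MHC class I genes, stood at 193, 175, 178 and 198 CPM in wild type and at 246, 260, 221 and 238 CPM in the knockout (0.37 ± 0.07, adjusted p = 0.0203). The MHC class I presentation list that Nlrc5 belongs to had 1 of 23 genes called, Nlrc5 itself, and a median of 0.09, with 21 of 23 above 0. Of 51 tested type I interferon-stimulated genes 3 were called, all higher (Ifi47, the dNTP hydrolase Samhd1 at 0.34 ± 0.06 and the ADP-ribosyltransferase Parp14 at 0.45 ± 0.09), and 47 lay above 0, with a median of 0.28. None of them was called without knockout replicate 1 or 4, without wild-type replicate 1, 2 or 3, or in the fit over all 18 libraries; the Wald test called 7 and limma voom 5. Tmem173, which encodes the DNA-sensing adaptor STING, rose by 0.37 ± 0.07 (adjusted p = 0.0262). Ifng, the cytokine itself, stood at 2.05, 2.91, 5.36 and 5.19 CPM in wild type and at 8.47, 4.90, 14.6 and 7.03 CPM in the knockout. The groups overlapped at knockout replicate 2, and 1.16 ± 0.35 was not called (adjusted p = 0.27).

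**Figure D2:**
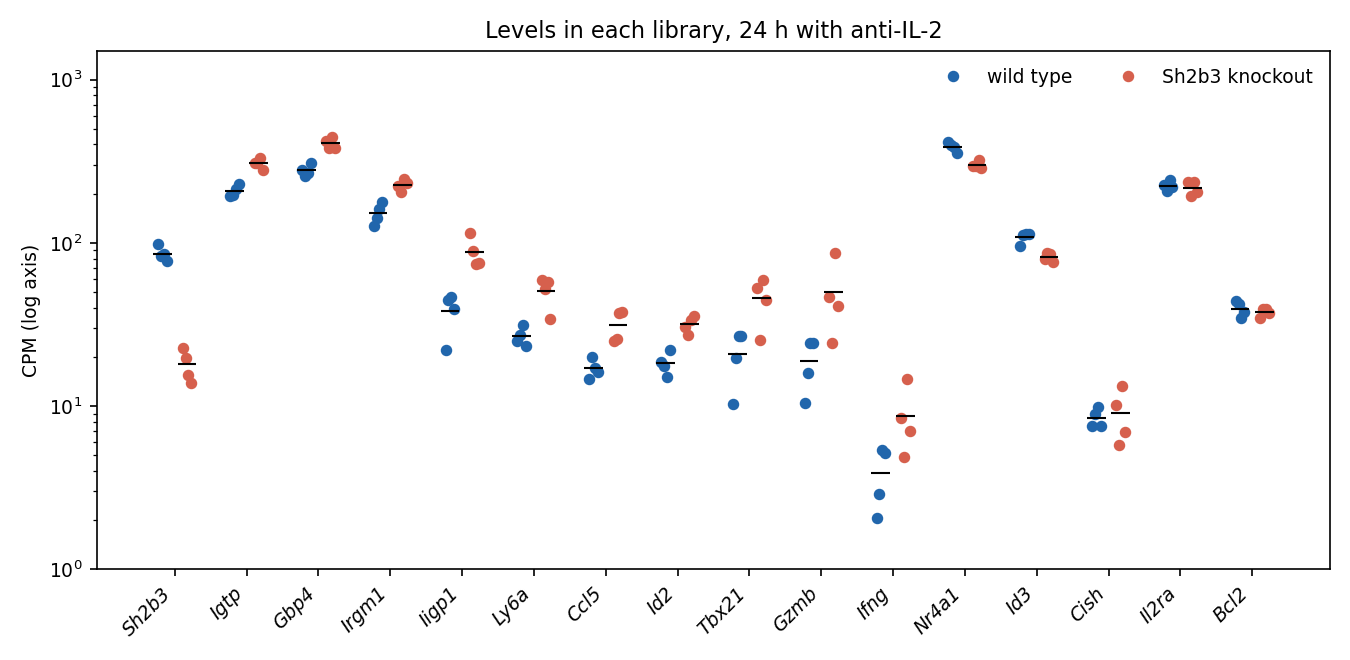
CPM on a log axis for 16 genes in the 4 wild-type (blue) and 4 knockout (red) libraries at 24 h with anti-IL-2, with a line at each group's mean. Sh2b3, Nr4a1 and Id3 are lower in the knockout, Igtp, Gbp4, Irgm1, Iigp1, Ly6a, Ccl5 and Id2 are higher without overlap, and Cish, Il2ra and Bcl2 overlap.

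As medians over a list, the interferon gamma response genes lay at -0.26, -0.28, -0.20 and -0.08 log2 units from their 8-library means in wild-type replicates 1 to 4 and at 0.26, 0.19, 0.25 and 0.17 in knockout replicates 1 to 4. The type I interferon list lay between -0.18 and -0.03 in wild type and between 0.09 and 0.18 in the knockout. In both lists the groups were separate, and the libraries that stood apart on the principal components lay on the side of their own genotype.

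The effector and memory lists had few called genes, all higher. Of 24 tested CD8 effector genes 1 was called, Id2, with a median of 0.35 and 17 above 0, and of 22 memory-phenotype genes 2 were called, Id2 and Ccl5, with a median of 0.34. With 1 library left out the effector list had 0 to 4 calls, 0 of them in 6 of the 8 such fits, and a median as low as 0.22 (without knockout replicate 3). With no filter on low counts it had 7 calls and a median of 0.11. The DESeq2 Wald test and limma voom called 4 each. Id2, an inhibitor of E proteins that favours effector differentiation, stood at 18.7, 17.6, 15.1 and 21.9 CPM in wild type and at 30.3, 27.1, 33.8 and 35.5 CPM in the knockout. The groups did not overlap (0.78 ± 0.14, adjusted p = 0.0202). Id3, the related inhibitor of naive and memory-precursor cells, went the other way, from 95.8, 112, 113 and 113 CPM to 79.3, 86.6, 85.2 and 76.6 CPM (-0.41 ± 0.08, adjusted p = 0.0282), and was the 1 called gene of 33 in the naive and quiescent list, whose median was -0.06. Ccl5, a chemokine of memory and effector cells, went from 14.7, 20, 17.1 and 16.2 CPM to 25.0, 25.7, 37.1 and 37.5 CPM (0.88 ± 0.16, adjusted p = 0.0226). It was also the 1 called gene of 22 cytokines and chemokines (median 0.12). That median was 0.025 without knockout replicate 3, 0.053 without wild-type replicate 1, 0.056 without wild-type replicate 4 and 0.22 without wild-type replicate 3, with 0 calls in each.

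Ly6a, the interferon-inducible surface protein Sca-1, went from 24.9, 27.4, 31.5 and 23.2 CPM to 59.5, 52.2, 57.8 and 34.3 CPM (0.92 ± 0.15, adjusted p = 0.0129). Knockout replicate 4 was the lowest of its group, and still above every wild-type library. Slamf7, a receptor of cytotoxic cells and the 1 called member of 20 costimulatory receptors, rose by 0.46 ± 0.10 (adjusted p = 0.0485). Plac8 rose by 0.73 ± 0.11 (adjusted p = 0.00851) and AW112010, a transcript induced in activated lymphocytes, by 0.50 ± 0.08 (adjusted p = 0.00935). Atp8b4, a member of the phospholipid-flippase ATPases, rose by 0.56 ± 0.09 (adjusted p = 0.0135), Rnf157, a ubiquitin ligase gene, by 0.77 ± 0.16 (adjusted p = 0.042), and Ppic, a cyclophilin, by 0.97 ± 0.20 (adjusted p = 0.0424).

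The cytotoxic genes had higher knockout means that were not called. Gzmb, the protease granzyme B, stood at 10.4, 16.0, 24.5 and 24.2 CPM in wild type and at 46.8, 24.2, 87.0 and 40.9 CPM in the knockout (1.39 ± 0.43, adjusted p = 0.37). Tbx21, the effector transcription factor T-bet, stood at 10.3, 19.6, 27.0 and 27.0 CPM and at 53.1, 25.4, 59.0 and 44.9 CPM (1.11 ± 0.33, adjusted p = 0.31). In both, knockout replicate 2 lay within the wild-type range and the other 3 knockout libraries lay above it. Without wild-type replicate 1, knockout replicate 2 and knockout replicate 4 together, a setting chosen after the data were seen, Tbx21 was called and Gzmb was not (adjusted p = 0.0617). Eomes, the related factor, had no overlap, at 28.8 ± 4.28 CPM for wild type and 44.1 ± 9.37 CPM for knockout (0.61 ± 0.14, adjusted p = 0.11). Markers of NK cells summed to 98.6 to 136 CPM (wild type) and 133 to 167 CPM (knockout) over 14 markers, of which 5 were tested and 0 called. The DESeq2 Wald test called 1 of them and limma voom 2. The most abundant were Prf1 and Eomes. The NK receptor genes Klrb1c, Klrb1b and Klra8 were at 0 in all 8 libraries, while Ncr1 and Klre1 had enough reads to be tested (-1.39 ± 1.02 and -0.96 ± 0.93, adjusted p = 0.74 and 0.81). The part of NK cell transcripts in these differences was not tested. In bulk RNA, more cells in a state and more RNA per cell cannot be told apart.

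The readouts of IL-2 signalling did not separate the genotypes here. Of 37 tested IL-2 and STAT5 targets 0 were called (7 at an unadjusted p under 0.05), 20 lay above 0, and the median was 0.01. The DESeq2 Wald test and limma voom, which called 141 and 113 genes over the whole table, also called 0 of these targets. With no filter on low counts 1 of 38 was called, lower. Without wild-type replicate 1, knockout replicate 2 and knockout replicate 4 together 1 of 37 was called, higher. Cish, the STAT5-induced feedback inhibitor, stood at 7.53, 8.96, 9.85 and 7.53 CPM in wild type and at 10.1, 5.78, 13.2 and 6.97 CPM in the knockout. The ranges overlapped, and the difference was 0.08 ± 0.25 (95% interval -0.44 to 0.60, adjusted p = 0.96). Il2ra, the high-affinity receptor chain, stood at 226, 207, 243 and 220 CPM and at 236, 193, 234 and 204 CPM (-0.05 ± 0.07, interval -0.21 to 0.10). Bcl2, which protects from apoptosis, differed by -0.08 ± 0.11 (interval -0.30 to 0.15) and the kinase gene Pim1 by 0.01 ± 0.09 (interval -0.18 to 0.20). For Pim1 the interval leaves room for differences of up to about 0.2 log2 units in either direction. That of Il2ra leaves room for about 0.2 downwards and 0.1 upwards, and that of Cish is wider, from -0.44 to 0.60.

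The other feedback inhibitors were not called either. Socs1, which is induced by interferons and by cytokines of the IL-2 family, stood at 40.5, 34.7, 36.5 and 42.4 CPM in wild type and at 50.8, 55.4, 43.9 and 39.3 CPM in the knockout (0.30 ± 0.12, adjusted p = 0.41). Socs3 differed by 0.23 ± 0.21 (adjusted p = 0.80), with knockout replicate 2 at 22.9 CPM and the other 7 libraries at 11.3 to 15.4 CPM. Socs2 was at most 1.27 CPM in any library and too low to compare. Il2 itself was at 2.11, 6.78, 6.60 and 5.34 CPM in wild type and at 5.14, 11.4, 14.4 and 7.91 CPM in the knockout (0.89 ± 0.34, adjusted p = 0.40). Myc, a growth regulator, was at 395 ± 24.5 CPM and 401 ± 30.2 CPM (SD, n = 4 each; interval of the log2 difference -0.12 to 0.16). Of 29 common gamma chain receptor and JAK-STAT genes 0 were called (2 at an unadjusted p under 0.05; median 0.02; 1 called by each of the DESeq2 Wald test and limma voom), and of 19 other cytokine receptor genes 0 were called by any of the 3 tools (9 at an unadjusted p under 0.05; median 0.17).

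**Figure D3:**
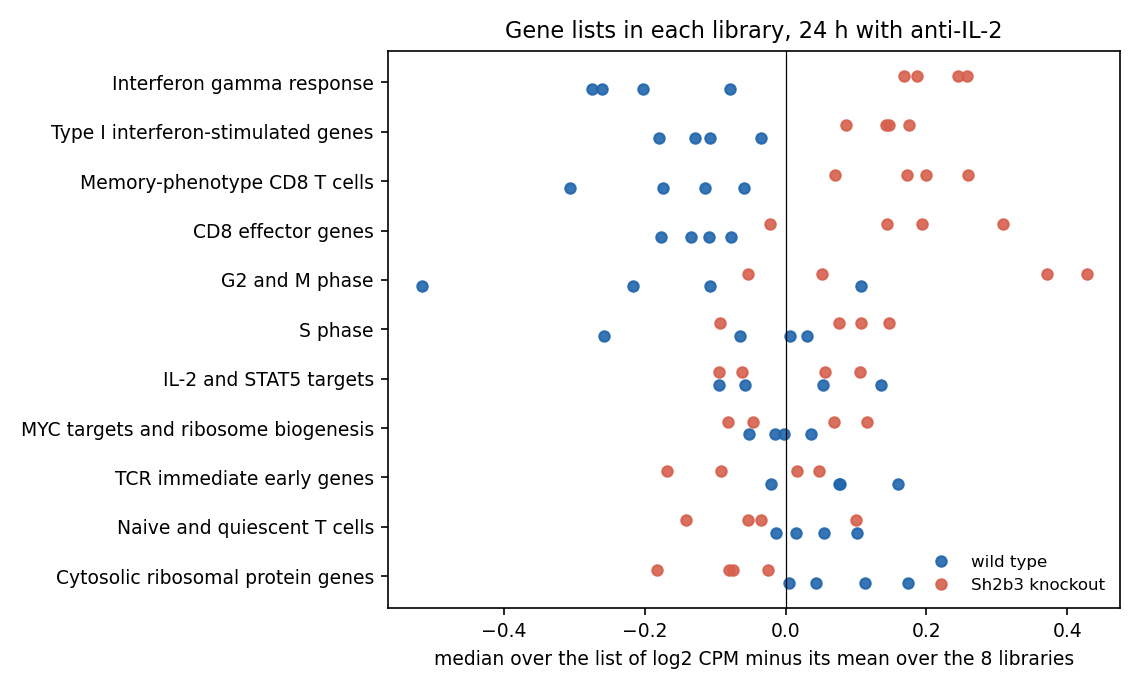
Each point is 1 of the 8 libraries, placed at the median over a gene list of log2 CPM minus the gene's mean over the 8 libraries (x axis); wild type is blue and knockout red. The genotypes do not overlap in 5 of the 11 lists drawn (both interferon lists, the memory list, the CD8 effector list and the ribosomal protein genes), and overlap in the other 6, the IL-2 and STAT5 targets and the MYC targets among them.

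Of 30 immediate early genes of T cell receptor signalling 1 was called, Nr4a1, lower, and 24 lay below 0, with a median of -0.16. By library the list's median ranged from -0.02 to 0.16 in wild type and from -0.17 to 0.05 in the knockout, so the genotypes overlapped. Nr4a1, a nuclear receptor used as a readout of receptor signal strength, stood at 416, 397, 385 and 356 CPM in wild type and at 296, 297, 322 and 289 CPM in the knockout (-0.37 ± 0.06, adjusted p = 0.013), without overlap. It was also the 1 called gene of 20 inhibitory receptor and exhaustion genes (median -0.08), a list whose median by library was 0.01 to 0.11 in wild type and -0.11 to -0.02 in the knockout, without overlap. Dusp4 and Itm2a were called and belong to none of the lists. Dusp4, a phosphatase of MAP kinases induced by receptor signals, fell by 0.43 ± 0.08 on the log2 scale (adjusted p = 0.0226), from 105 ± 8.49 to 77.9 ± 4.75 CPM (SD, n = 4 each). The surface protein gene Itm2a, which is induced on T cell activation, stood at 486, 411, 525 and 530 CPM in wild type and at 340, 383, 328 and 342 CPM in the knockout (-0.49 ± 0.08, adjusted p = 0.00935). Of 34 genes of the receptor signalling machinery 0 were called by edgeR (6 at an unadjusted p under 0.05; median -0.04; 3 called by the DESeq2 Wald test and 1 by limma voom).

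Cell cycle genes leaned upwards without a call. All 32 tested G2 and M phase genes lay above 0 (median 0.35, 0 called by edgeR, 21 at an unadjusted p under 0.05; 2 called by the DESeq2 Wald test and 1 by limma voom), as did 35 of 39 S phase genes (median 0.11, 0 called by any of the 3 tools, 11 at an unadjusted p under 0.05). By library, the G2 and M phase list lay at -0.52, -0.22, -0.11 and 0.11 in wild-type replicates 1 to 4 and at 0.05, -0.05, 0.37 and 0.43 in knockout replicates 1 to 4, so the groups overlapped. Genes of 1 phase rise and fall together in a library, and their number above 0 is not a count of independent observations. Ccnb1, the mitotic cyclin B1, averaged 28.7 ± 5.96 CPM (wild type) and 45.5 ± 6.96 CPM (knockout; SD, n = 4 each; 0.65 ± 0.15, adjusted p = 0.0825).

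The growth and metabolic lists had medians near 0 and 0 calls, with 0.03 for 39 MYC target and ribosome biogenesis genes, 0.09 for 27 glycolysis genes, 0.02 for 31 cholesterol and fatty acid synthesis genes and 0.01 for 29 amino acid and ATF4 genes. The same held for survival and stress, with -0.07 for 24 BCL2 family and apoptosis genes, 0.01 for 24 p53 targets and -0.00 for 13 heat shock genes. At an unadjusted p under 0.05 these 7 lists had 5, 4, 2, 6, 3, 8 and 0 genes, and the DESeq2 Wald test and limma voom called 0 of them apart from 1 glycolysis gene by voom.

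Cytosolic ribosomal protein genes, a group chosen after the values were seen, supplied 5 of the 20 lower calls. Of 83 tested genes 79 lay below 0, with a median of -0.17, and the 5 called were Rps7, Rpl34, Rpl30, Rps25 and Rps26. The count was 1 without knockout replicate 4, wild-type replicate 2 or wild-type replicate 3, 2 without knockout replicate 1, knockout replicate 3 or wild-type replicate 1, 3 without wild-type replicate 4 and 7 without knockout replicate 2. It was 18 with the DESeq2 Wald test and with limma voom, 26 without the filter and 1 in the fit over all 18 libraries. Rps7 is counted among the chromosome 12 genes as well, and was also lower without anti-IL-2 (-0.48 ± 0.10) and at 0 h (-0.33 ± 0.05). Rpl34 stood at 805, 823, 821 and 770 CPM in wild type and at 681, 613, 668 and 595 CPM in the knockout (-0.34 ± 0.06, adjusted p = 0.0134). By library the group's median was 0.01 to 0.17 in wild type and -0.18 to -0.02 in the knockout, without overlap. With DESeq2 size factors the group median was -0.17 as well, and the median over all genes was 0.0027 in place of -0.0026. These are short transcripts: with all genes split into 10 bins of equal size by transcript length, the median difference went from -0.05 in the bin of the shortest (7 called lower, 1 higher) to 0.04 in that of the longest (0 lower, 4 higher), and the part of transcript length in the result was not tested. Without anti-IL-2 at 24 h the group's median was -0.01, and at 0 h it was 0.05. Serf2, the myosin light chain gene Myl6 and the mitochondrial tRNA gene mt-Tp fell by 0.51 ± 0.09, 0.39 ± 0.08 and 0.64 ± 0.12 on the log2 scale (adjusted p = 0.0227, 0.0421 and 0.0254). The 12 tested mitochondrial transcripts of a list kept for RNA quality had a median of -0.08 and 0 calls.

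Genes that lie together on chromosome 12 changed in both directions. From Kidins220 to Acp1, 6 of 12 consecutive tested genes were called (50% against 0.35% of all genes), 2 higher and 4 lower, while 1 of the other 469 tested genes of the chromosome was called. The stretch was picked with its values known, and a wider list of proximal chromosome 12 genes had the same 6 called of 27 tested (median -0.04). Acp1, a low-molecular-weight phosphatase, stood at 77.5, 70.9, 89.8 and 96.3 CPM in wild type and at 38.4, 52.5, 39.5 and 36.7 CPM in the knockout (-1.0 ± 0.12, adjusted p = 8.35e-04). Rps7 fell by 0.46 ± 0.06, Trappc12, a vesicle-tethering subunit, by 0.51 ± 0.08, and Kidins220, a scaffold of receptor signalling, by 0.47 ± 0.09 on the log2 scale. Adi1, an enzyme of methionine salvage, rose by 0.56 ± 0.11, and Id2 (above) lies in the same stretch. Rnf144a, between Id2 and Rps7, stood at 22.2, 23.6, 21.1 and 27.4 CPM in wild type and at 5.85, 12.9, 2.28 and 3.60 CPM in the knockout without overlap, and its -1.89 ± 0.41 was not called (adjusted p = 0.11). Id2 was counted above with the effector and memory genes, and a difference at this stretch of the genome cannot be told apart from a difference in the T cell programme for that gene.

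**Figure D4:**
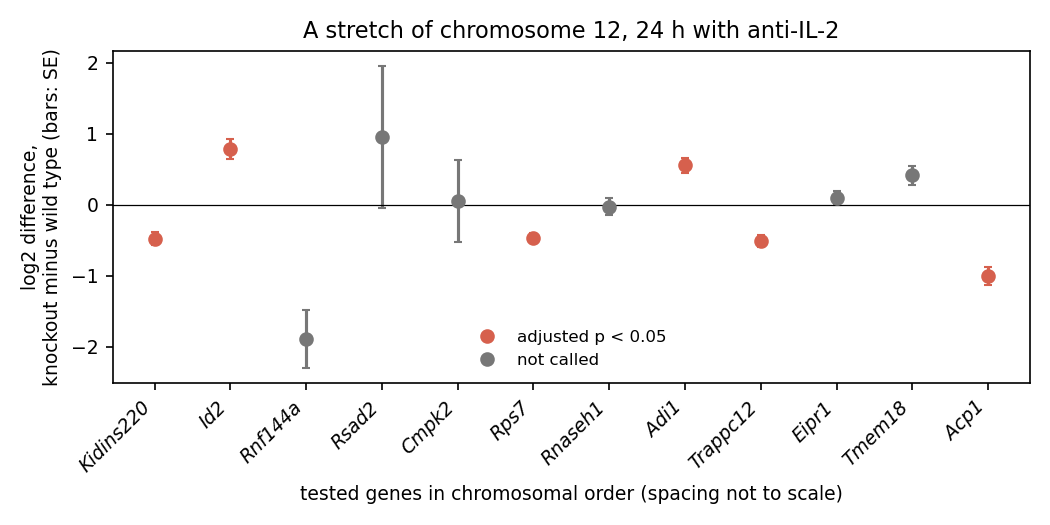
The 12 tested genes from Kidins220 to Acp1 in their order on chromosome 12, with the log2 difference between knockout and wild type (points) and its SE (bars); red genes are at an adjusted p under 0.05. The 6 red genes include rises (Id2, Adi1) and falls (Kidins220, Rps7, Trappc12, Acp1), with Acp1 the lowest of them at -1.0.

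The largest called difference of a gene with an established name was in Mid1, which encodes an X-linked ubiquitin ligase of microtubules. It stood at 3.89, 1.64, 2.86 and 1.47 CPM in wild type and at 18.5, 25.8, 26.8 and 24.1 CPM in the knockout (3.26 ± 0.26, adjusted p = 4.05e-06). Gm6472, a predicted gene, rose by 4.44 ± 0.23 (adjusted p = 4.05e-06). Mouse Mid1 spans the boundary of the pseudoautosomal region, and reads of related copies cannot be assigned with certainty. Without anti-IL-2 the Mid1 libraries ranged from 2.10 to 14.2 CPM in wild type and from 2.92 to 33.6 CPM in the knockout, and 1.72 ± 0.81 was not called (adjusted p = 0.45). At 0 h Mid1 was called, at 1.48 ± 0.23 (adjusted p = 0.0035).

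The same genotype difference was measured at 24 h without anti-IL-2, with no libraries shared. There 48 of 12906 genes were called (0.372%), and 12 of the 46 anti-IL-2 calls tested in both were also called, all in the same direction (26.1% of the calls with the antibody and 25.5% of those without). They were Sh2b3, Id2, Id3, Rnf157, Ppic, Iigp1, Igtp, Gm12250, Gm6472 and the chromosome 12 genes Adi1, Trappc12 and Rps7. Of the 47 calls without antibody that were tested in both, 42 (89.4%) had the same direction with it, against 55.9% of all genes. At 0 h, with 81 of 12802 genes called (0.633%), 10 were called in common, and 7 were called in all 3 comparisons, namely Sh2b3, Id2, Rnf157, Adi1, Trappc12, Rps7 and Gm6472.

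Of 35 interferon gamma response genes 0 were called for a change of the genotype difference between the conditions (4 at an unadjusted p under 0.05; median 0.03; 20 above 0), which does not show that the differences were alike. Igtp was higher in the knockout by 0.54 ± 0.10 without anti-IL-2 and by 0.56 ± 0.07 with it, a difference of 0.01 ± 0.13 between them (unadjusted p = 0.92). The interferon gamma list had a median of 0.34 without anti-IL-2, with 5 of 35 genes called higher (0.225% of all genes were), and 0.24 at 0 h. At 0 h 1 of its 34 tested genes was called, higher. The type I interferon list had a median of 0.22 without anti-IL-2, with 1 of 51 genes called higher. At 0 h its median was 0.37, above the 0.28 with anti-IL-2, and all 53 tested genes lay above 0. Of those 53, 4 were called higher (0.328% of all genes were) and 39 had an unadjusted p under 0.05. Irgm1 was at 0.22 ± 0.09 without and 0.58 ± 0.09 with the antibody, and that difference of 0.35 ± 0.13 was not called (unadjusted p = 0.010, adjusted p = 0.57). For Ifi47 the values were 0.14 ± 0.10 without and 0.42 ± 0.07 with it, a change of 0.28 ± 0.13 (unadjusted p = 0.037, adjusted p = 0.67). Those of Irgm2 were 0.10 ± 0.13 and 0.39 ± 0.07, and those of Gbp4 0.35 ± 0.13 and 0.55 ± 0.07 (adjusted p of the change 0.80 and 0.89). Each of these 4 genes was called with the antibody and not without it. For Gbp2, Gbp5 and Gbp10 it was the reverse. Without the antibody they were called (0.66 ± 0.13, 0.60 ± 0.11 and 1.22 ± 0.24, edgeR adjusted p = 0.036, 0.026 and 0.036). With it they were at 0.57 ± 0.18, 0.54 ± 0.19 and 0.64 ± 0.18 and not called. Their changes of -0.10 ± 0.23, -0.07 ± 0.23 and -0.58 ± 0.32 were not called (adjusted p = 0.98, 0.99 and 0.77). Id2 was higher by 1.01 ± 0.13 without the antibody, 0.78 ± 0.14 with it and 0.68 ± 0.14 at 0 h. Tbx21 was higher by 1.18 ± 0.21 without and 1.11 ± 0.33 with it.

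Of 38 IL-2 and STAT5 target genes tested for a change of the genotype difference with the antibody, 0 were called (11 at an unadjusted p under 0.05) and 8 had a change above 0, with a median of -0.33. Cish was higher in the knockout by 1.46 ± 0.33 without anti-IL-2 (adjusted p = 0.11) against 0.08 ± 0.25 with it, a change of -1.40 ± 0.50 (unadjusted p = 0.013, adjusted p = 0.59). The change was -0.69 ± 0.25 for Il2ra, -0.67 ± 0.20 for Bcl2 and -0.45 ± 0.17 for Pim1 (adjusted p = 0.59, 0.40 and 0.59). Lta, a cytokine of the TNF family, was called without the antibody (1.64 ± 0.26, adjusted p = 0.0186) and differed by 0.13 ± 0.20 with it. That change of -1.51 ± 0.40 was not called (adjusted p = 0.40). Socs1 differed by 0.25 ± 0.11 without and 0.30 ± 0.12 with the antibody. Il2 differed by 0.27 ± 0.40 without and 0.89 ± 0.34 with it, a change of 0.62 ± 0.60 (adjusted p = 0.91). Pim1, Lta, Gadd45g, Gbp2, Gbp5, Gbp10 and Myb are outside the rule for named genes or were picked with their values known.

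Over the whole list of IL-2 and STAT5 targets the median was 0.26 without anti-IL-2, with 31 of 37 genes above 0 and 1 called, and 0.01 with it. The median of the change was -0.33 over 38 genes, of which 30 lay at or below 0 and 0 were called (11 at an unadjusted p under 0.05). The levels also differed between the library sets without antibody. In set B, Cish averaged 74.0 CPM for wild type and 95.8 CPM for knockout (2 libraries of each genotype). The means were 21.6 and 101 CPM in set C (3 of each), and at 8.47 and 9.01 CPM in set D with anti-IL-2. Il2ra was at 459 and 454 CPM in set B, 221 and 465 CPM in set C and 224 and 217 CPM in set D. In set B the mean Il2ra levels of the genotypes were close to each other, and the higher knockout level without antibody was in set C.

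**Figure D5:**
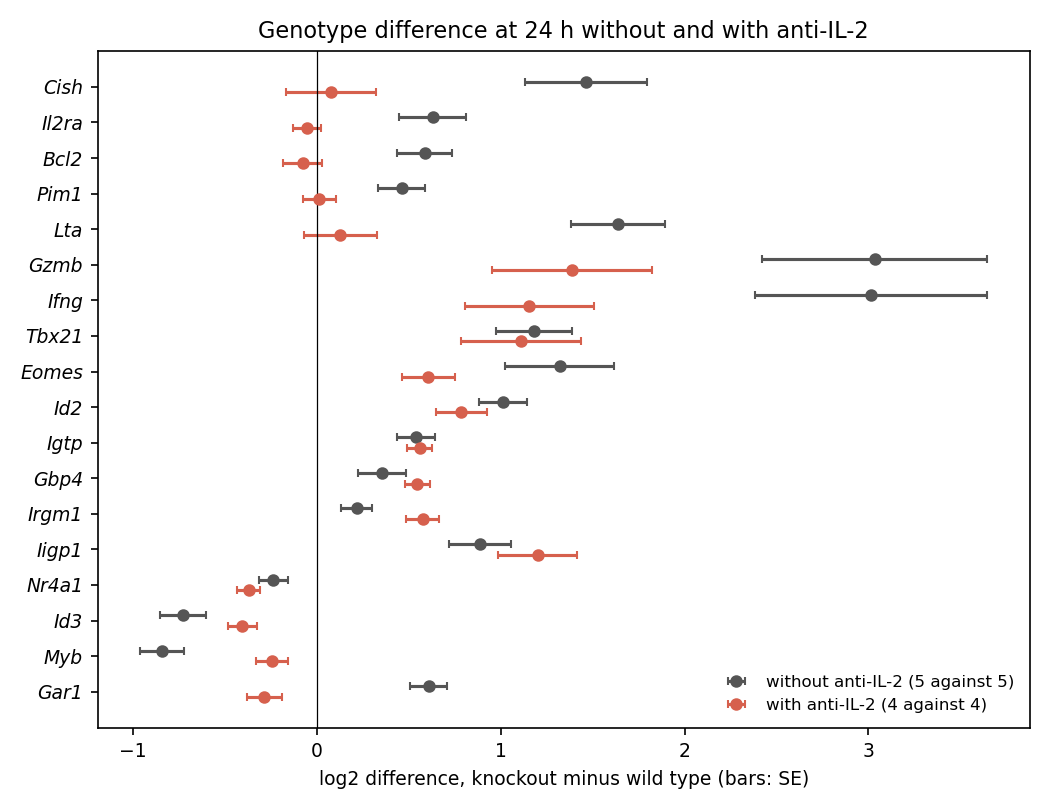
Log2 difference between knockout and wild type (points) with its SE (bars) for 18 genes at 24 h without anti-IL-2 (dark, 5 libraries against 5) and with it (red, 4 against 4). Cish, Il2ra, Bcl2, Pim1 and Lta lie near 0 with the antibody, Igtp and Tbx21 nearly coincide, and Gar1 changes side.

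Over all genes, the change of the genotype difference between the conditions was called for 1 of 14778 genes tested (0.00677%), with 1041 at an unadjusted p under 0.05. That gene was Gar1, a protein of small nucleolar ribonucleoproteins that modify ribosomal RNA. With anti-IL-2 it stood at 90.5, 116, 107 and 93.0 CPM in wild type and at 84.6, 82.4, 94.3 and 73.4 CPM in the knockout (-0.28 ± 0.09), and without it the knockout was higher by 0.61 ± 0.10. The change was -0.90 ± 0.14 log2 units (adjusted p = 0.0175). Gzmb and Ifng had smaller differences with the antibody than without, at 1.39 against 3.03 and 1.16 against 3.01. These changes of -1.65 ± 0.80 and -1.88 ± 0.85 were not called (adjusted p = 0.74 and 0.70). Nkg7 went the other way, at 0.45 with the antibody against 0.26 without, also not called (adjusted p = 0.90). Of 26 tested CD8 effector genes 0 were called for a change, and 5 had a change above 0, with a median of -0.27. Myb, a factor of self-renewing T cells, was lower in the knockout by 0.84 log2 units without the antibody, where it was called, and its change of 0.60 ± 0.15 was not called (adjusted p = 0.38). Gadd45g, a stress and cytokine response gene, was higher by 2.11 ± 0.37 without the antibody (called) and at -0.57 ± 0.30 with it, a change of -2.68 ± 0.56 that was not called (adjusted p = 0.25).

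Of 9 marker lists of other cell types, 8 had tested genes (the neutrophil list had 0). edgeR called 0 genes in each, with 3 gamma delta T cell, 2 NK cell, 1 B cell and 1 dendritic cell marker at an unadjusted p under 0.05. The DESeq2 Wald test and limma voom called 1 and 2 NK cell markers and none of the others. B cell markers summed to 376 to 411 CPM (wild type) and 388 to 447 CPM (knockout), led by Ighm and Ighd. Of 15 tested B cell markers 13 lay above 0, with a median of 0.35, and by library the median was -0.59 to 1.0 in wild type and 0.12 to 0.57 in the knockout. Monocyte and macrophage markers summed to 11.8 to 16.1 and 12.4 to 18.8 CPM, with Cd14, C1qb and C1qc at 0 throughout. Dendritic cell and MHC class II markers summed to 89.6 to 116 and 108 to 133 CPM, CD4 and regulatory T cell markers to 47.9 to 66.2 and 45.9 to 69.0 CPM, and gamma delta T cell markers to 147 to 175 and 97.9 to 159 CPM, led by Trdc. Erythroid markers lay at 7.37 to 25.3 and 15.1 to 37.4 CPM and platelet markers at 1.85 to 4.68 and 0.996 to 3.58 CPM. The ranges of the genotypes overlapped in each of these lists, and the part of other cell types in the results above was not tested.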

How the data were processed

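Messenger RNA was sequenced in 60 libraries, of which 8 are compared here. The authors deposited unnormalized counts of reads for 55414 genes. Per the submitters' processing notes, the tools named were FastQC 0.119.9, STAR 2.7.9a, SAMtools, Picard 2.42.2 and featureCounts 2.0.1 of Subread, with GRCm39. Strand setting and handling of shared reads are not given in the sources used here, so overlapping genes and close copies are uncertain. Names and gene order came from GENCODE M21, on another build, which named 52081 genes holding 99.8% of the counts.

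Genes were kept by filterByExpr (minimum count 10), scaled by TMM and fitted with edgeR 4.0.16 (R 4.3.3; robust quasi-likelihood test), adjusted by Benjamini-Hochberg over all genes tested and called under 0.05. The genotype fit with anti-IL-2 used its 8 libraries. Fits without antibody had the library set as a term. CPM were scaled over the 18 libraries at 24 h, and log2 levels used a prior count of 2. Libraries of a group differed by a chi-square of 7.65 or more per degree of freedom (genes of at least 20 counts), so no duplicates were seen. The procedure was tested on simulated data. For the comparison with anti-IL-2, 92% of the planted 2-fold changes, all in genes of at least 4 CPM, were called. There were 13 false calls, which are to be set against the calls made in the simulation and not against the 13441 genes. No change smaller than 2-fold was planted, so recovery of the smaller differences reported here was not tested.

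Named were Sh2b3, the 12 largest rises and falls among called genes of at least 4 CPM (without predicted genes, pseudogenes, receptor segments, Xist and Y-linked genes), up to 4 members of each of 36 lists, 13 genes of the IL-2 and effector programmes given always, up to 5 interaction genes each way and genes called in the other comparisons. Where these are many, the text gives those of most weight. The members, the lists and the rule were chosen with earlier results of these data known. Alternatives were DESeq2 1.42.0 (size factors, Wald test), limma 3.58.1 voom, no filter, a 1.5-fold test, a fit over 18 libraries, library sets and leaving out libraries. Withheld items are not reported here.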

Additional observations from a re-analysis of the deposited data

Results flagged for a closer look

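Within the groups of 4 libraries, 5 of 164 group and value combinations had 1 library far from the other 3, and chance flags about 1 in 20 groups. Wild-type replicate 4 had 138 CPM of Parp14 where the other wild-type libraries had 108 to 111. Wild-type replicate 1 was low for Id3, at 95.8 CPM against 112 to 113, and for Rps26, at 1270 CPM against 1320 to 1330. Knockout replicate 3 had 49.7 CPM of Plac8 against 40.1 to 40.8, and knockout replicate 4 had 827 CPM of Rps25 against 871 to 880. In each of these the library remained on its own genotype's side.

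The genotype difference of Gar1 changed between the conditions by -0.90 log2 units, with the knockout lower with anti-IL-2 and higher without it. It was called in 17 of 24 alternative analyses, in which the change ran from -0.96 to -0.83.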

How the results depend on the processing

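No paired analysis was possible because the labels give no replicate numbers that the genotypes share; the numbers used here follow the accession order. For the genotype with anti-IL-2 at 24 h, 47 genes were called, and 47 with DESeq2 size factors, 191 without the filter on low counts, 141 with the DESeq2 Wald test, 113 with limma voom, 3 in the test for a change of at least 1.5-fold, 10 in a fit over all 18 libraries, 10 to 76 with 1 library left out, and 63 without wild-type replicate 1, knockout replicate 2 and knockout replicate 4 together (chosen after the data were seen; 31 of the 63 were among the 47). For the genotype without anti-IL-2 at 24 h, 48 genes were called, and 362 without the filter, 232 with the Wald test, 362 with limma voom, 3 without the library set term and 8 to 361 with 1 library left out. For the genotype at 0 h, 81 were called, and 477 without the filter, 163 with the Wald test and 28 without the set term. For the difference of the genotype effect between anti-IL-2 and no antibody at 24 h, 1 was called, and 79 without the filter, 10 with the Wald test, 16 with limma voom, 0 with set B alone, 16 with set C alone and 0 to 11 with 1 library left out. The cause of these moves was not tested.

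Some genes near 0 changed sign when 1 library was left out. The range was -0.16 to 0.25 for Cish, -0.47 to 0.59 for Socs2, -0.061 to 0.34 for Socs3, -0.027 to 0.052 for Myc, -0.052 to 0.078 for Pim1 and -0.0087 to 0.29 for Lta. Socs2 was at 0.0032 in the fit over 18 libraries. Without the 3 libraries together Socs3 was at -0.10 and Il2ra at 0.062. With 4 libraries a group, Socs2 and Il2 rest on few reads.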
